A study of Mus musculus with 6 samples.

Results

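Type VI and fibril-associated collagens were examined in the abdominal aorta of VSMC-specific *Prdm16*-knockout mice (Prdm16SMKO) and control mice. The 8 genes, *Col6a1*, *Col6a2*, *Col6a3*, *Col6a6*, *Col9a2*, *Col12a1*, *Col14a1* and *Col16a1*, were chosen by name from the 55426 genes of the deposited table. There were 3 control and 3 Prdm16SMKO libraries, all from male C57BL/6J mice. Prdm16SMKO mice carried floxed *Prdm16* alleles and *Myh11*-CreERT2, a tamoxifen-inducible Cre recombinase driven by a smooth muscle promoter, and the study describes its controls as wild-type mice carrying *Myh11*-CreERT2. The Cre transgene lies on the Y chromosome, so only males carry it. By the study's methods, male mice received tamoxifen by gavage at 75 mg/kg each day over 5 days at 8 to 10 weeks of age. The time from tamoxifen to RNA extraction is not given for these libraries, and the aortas had received no aneurysm-inducing stimulus. The labels do not state whether a library came from 1 mouse or from pooled mice, so the p-values measure the spread between these libraries.

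Type VI collagen is a network-forming collagen of the pericellular matrix. The chains encoded by *Col6a1* and *Col6a2* join with one further chain, most often that of *Col6a3* and in some tissues that of *Col6a6* or another substitute, and the assembled units form beaded microfilaments that link cells and basement membranes to the surrounding collagen fibrils. Fibril-associated collagens with interrupted triple helices (FACITs) do not build fibrils themselves but sit on the surface of fibrillar collagens. Types XII and XIV, encoded by *Col12a1* and *Col14a1*, are found along type I collagen fibrils, type IX, to which *Col9a2* contributes a chain, is the FACIT of cartilage, and type XVI, encoded by *Col16a1*, occurs in several connective tissues.

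Levels are given as TPM, a unit of transcript abundance that is corrected for transcript length and has the same total in each library, so levels of different genes can be compared within a library. The reads behind a single value are not known from TPM, and so neither is its counting error. Differences between the groups are log2 fold changes of TPM + 0.5, Prdm16SMKO minus control, fitted with limma's moderated test over the 15775 genes that averaged 0.5 TPM or more, with Benjamini-Hochberg adjustment over all of these, and called genes are those with an adjusted p under 0.05. *Prdm16* itself had 33.4, 36.8 and 30.8 TPM in the control libraries, in replicate order, against 20.8, 27.7 and 14.8 TPM after knockout, with every Prdm16SMKO library below every control library. Its log2 fold change was −0.70 with a standard error of 0.23 (limma, adjusted p = 0.376). Between 15.8% and 27.4% of each library's TPM was mitochondrial and between 15.5% and 31.4% was 45S ribosomal RNA, which overlapped between the groups and scales every other value in that library.

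*Col6a1* (ENSMUSG00000001119) and *Col6a2* (ENSMUSG00000020241) lie next to each other on the minus strand of chromosome 10 of GRCm38, from 76708792 to 76726168 and from 76595762 to 76623630, with 85.2 kb between them and no other tested protein-coding gene in the gap. *Col6a3* (ENSMUSG00000048126) lies on chromosome 1, from 90765923 to 90843971, also on the minus strand. The stretches before the start sites of these 3 genes, which encode the main type VI chains and whose ratios are compared further on, are shown, taken from RefSeq on GRCm38.p6, on the minus strand and written 5′ to 3′. Each ends at the base before the gene's first annotated base, and the stretch of *Col6a1* is shorter because the annotation used here starts the gene upstream of the RefSeq start site. Capitals mark a match to GGGCGG, the core of a GC box, on either strand.
*Col6a1*, chr10:76726169-76726294: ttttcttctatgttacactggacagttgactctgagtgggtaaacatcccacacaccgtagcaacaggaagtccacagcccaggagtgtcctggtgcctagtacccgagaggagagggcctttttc
*Col6a2*, chr10:76623631-76623880: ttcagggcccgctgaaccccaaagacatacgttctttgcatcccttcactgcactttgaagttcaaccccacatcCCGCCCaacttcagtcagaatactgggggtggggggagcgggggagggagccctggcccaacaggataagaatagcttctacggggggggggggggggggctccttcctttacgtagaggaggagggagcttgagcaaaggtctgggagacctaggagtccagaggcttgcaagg
*Col6a3*, chr1:90843972-90844221: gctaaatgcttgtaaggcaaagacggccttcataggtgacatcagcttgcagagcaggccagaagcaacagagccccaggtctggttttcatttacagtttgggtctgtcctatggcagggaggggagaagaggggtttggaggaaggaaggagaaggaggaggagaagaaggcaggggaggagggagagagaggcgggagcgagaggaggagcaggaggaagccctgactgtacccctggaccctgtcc
The 250 bases before every RefSeq start site were searched on both strands for 5 motifs, namely TATAAA (the TATA box), CCAAT (the core bound by NF-Y), GGGCGG (the GC box), GGAATG (a motif bound by TEAD factors) and the CArG box (bound by serum response factor), of which the last can contain the TATA box. Of all 32851 such windows, 12.4%, 33.8%, 32.7%, 12.6% and 1.47% held a match to these motifs, in that order. The window of *Col6a2* held 1 match, a GGGCGG on the opposite strand 170 bases before the start site, and the windows of *Col6a1* and *Col6a3* held 0 matches to the 5 motifs. The window at the other RefSeq start site of *Col6a2*, 226 bases downstream, held 3 matches to GGGCGG and 1 to GGAATG. Of the 8 genes, 6 had an entry in the promoter table. *Col12a1* and *Col14a1* had none.

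The 3 main type VI chains were the most abundant of the 8 genes in the control aorta. *Col6a2* had the highest level of the 8 genes in control mice, with 206, 258 and 180 TPM in replicates 1, 2 and 3, followed by *Col6a1* with 191, 227 and 160 TPM. Both were within the highest 3% of tested genes, at percentiles 97.6 and 97.3. *Col6a3* was at 96.9, 132 and 90.9 TPM. The ranges of *Col6a2* and *Col6a1* overlapped between libraries, although *Col6a2* was above *Col6a1* in each of the 3, and the range of *Col6a3* lay below both. *Col14a1*, at 45.1, 49.3 and 44.6 TPM, and *Col16a1*, at 20.4, 24.5 and 17.8 TPM, came next, and each was separated from its neighbours in this order. *Col6a6* (2.91 to 3.79 TPM) and *Col12a1* (2.03 to 3.85 TPM) did not differ beyond their spread. *Col9a2* was at 0.03, 0.08 and 0 TPM.

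In Prdm16SMKO libraries the upper genes of this order lay closer together. *Col6a2*, *Col6a1*, *Col6a3* and *Col14a1* kept their sequence by mean level, at 153 ± 22.2, 150 ± 23.1, 114 ± 19.4 and 86.7 ± 13.8 TPM (SD, n = 3 each), but the range of each overlapped that of the next gene, while within each of the 3 libraries the sequence was the same. *Col12a1* was above *Col6a6* in 1 of 3 libraries.

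**Figure D1:**
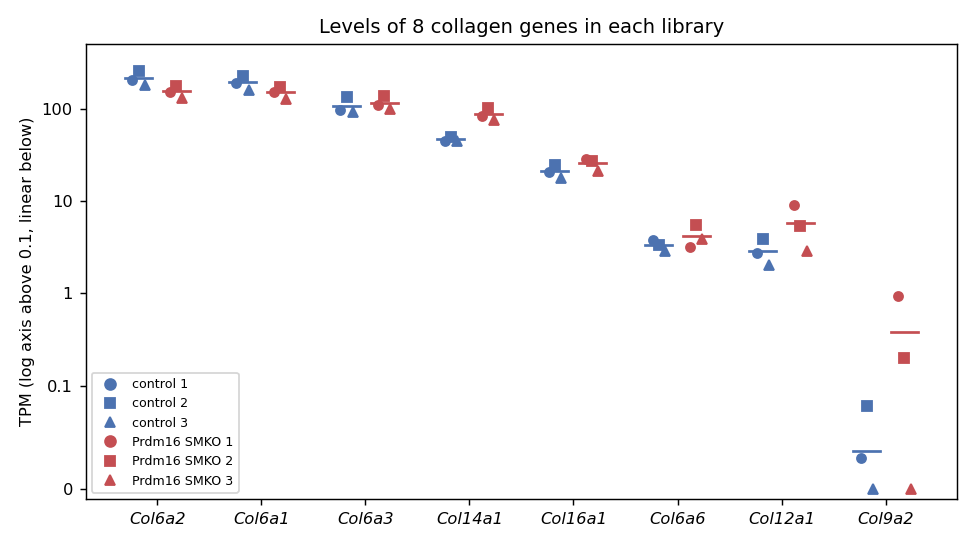
Level of each of the 8 collagen genes in TPM in the 3 control and 3 Prdm16SMKO libraries, on an axis that is logarithmic above 0.1 TPM and linear below. Points are libraries and bars are group means. *Col6a2* is lower and *Col14a1* higher in every Prdm16SMKO library than in any control library, and the other 6 genes overlap.

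Of the 7 genes above the expression minimum, 0 were called between the groups by limma, against 0.355% of all tested genes. At an unadjusted p under 0.05 there were 2, *Col14a1* and *Col6a2*, against 8.74% of all tested genes, and these were also the 2 genes whose groups did not overlap, against 12.8% of all. *Col14a1* was the 1 gene higher in every Prdm16SMKO library, against 7.02% of all tested genes, and *Col6a2* the 1 gene lower, against 5.76%. The groups of *Col9a2* overlapped as well. Higher values in Prdm16SMKO libraries were seen in 5 of the 7 genes and lower values in 2, with a median log2 fold change of 0.27, beside 0.025 over all tested genes. The differences ranged from −0.48 for *Col6a2* to 0.89 for *Col14a1*.

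**Figure D2:**
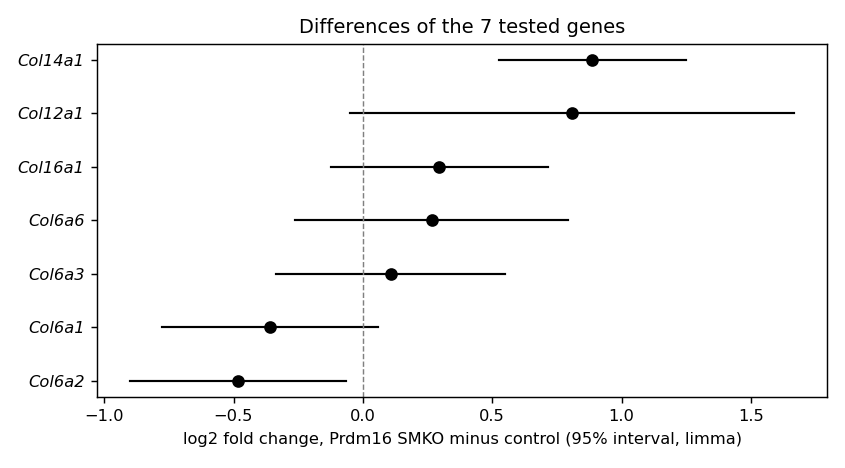
Log2 fold change of the 7 tested genes, Prdm16SMKO minus control, with the 95% interval from limma. The intervals of *Col14a1* (0.53 to 1.25) and *Col6a2* (−0.90 to −0.064) lie on one side of 0, and the other 5 include 0.

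*Col6a2*, which encodes an obligatory chain of type VI collagen, was at 206, 258 and 180 TPM in control and 152, 176 and 132 TPM in Prdm16SMKO replicates 1, 2 and 3. Every Prdm16SMKO library lay below every control library. The log2 fold change was −0.48 with a standard error of 0.18 and a 95% interval of −0.90 to −0.064 (limma, adjusted p = 0.487). *Col6a1*, the other obligatory chain, was at 191, 227 and 160 TPM in control and 150, 173 and 126 TPM in Prdm16SMKO replicates. The groups overlapped, since Prdm16SMKO replicate 2 was above control replicate 3. Its log2 fold change was −0.36 with a standard error of 0.18 and an interval of −0.78 to 0.058 (limma, adjusted p = 0.678). *Col6a3*, their usual partner and the longest of the trio, was at 96.9, 132 and 90.9 TPM in control and 109, 136 and 98.2 TPM in Prdm16SMKO replicates, with overlapping groups. Its log2 fold change was 0.11 with a standard error of 0.19 and an interval of −0.33 to 0.55 (limma, adjusted p = 0.956), and with Prdm16SMKO replicate 2 left out it was −0.023. The summed level of the trio was 514 ± 94.6 TPM in control and 417 ± 64.3 TPM in Prdm16SMKO libraries (SD, n = 3 each), with overlapping groups.

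*Col6a6*, an alternative to the *Col6a3* chain, was expressed at a small fraction of the level of *Col6a3*. It was at 3.79, 3.37 and 2.91 TPM in control and 3.22, 5.47 and 3.93 TPM in Prdm16SMKO replicates 1, 2 and 3, with overlapping groups and a log2 fold change of 0.27 (standard error 0.23, 95% interval −0.26 to 0.79, limma, adjusted p = 0.876). Without Prdm16SMKO replicate 2, the highest library, it was 0.080. Its locus on chromosome 9 of GRCm38 spans 105687809 to 105828160, beside *Col6a5* and *Col6a4*, which encode the remaining alternative chains. An exon of *Gm38314*, on the opposite strand, overlaps an exon of *Col6a6*, and reads of the pair cannot be told apart where no strand is stated, but *Gm38314* was at no more than 0.25 TPM in any library. *Col6a5* was at 0.23 to 0.61 TPM in control and 0.50 to 0.85 TPM in Prdm16SMKO libraries, and *Col6a4* was at no more than 0.40 TPM. *Col6a6* was thus the most abundant alternative chain in every library.

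*Col14a1* (ENSMUSG00000022371; chromosome 15 of GRCm38, 55307750 to 55520803, plus strand) encodes type XIV collagen, a FACIT that limits the lateral growth of collagen fibrils. It was at 45.1, 49.3 and 44.6 TPM in control and 83.1, 102 and 75.1 TPM in Prdm16SMKO replicates 1, 2 and 3. Every Prdm16SMKO library was above every control library, and the lowest Prdm16SMKO value lay well clear of the highest control value. The mean was 46.3 ± 2.60 TPM in control and 86.7 ± 13.8 TPM in Prdm16SMKO libraries (SD, n = 3 each), 1.87 times as high. The log2 fold change was 0.89 with a standard error of 0.16 and a 95% interval of 0.53 to 1.25 (limma, adjusted p = 0.0666), which ranked *Col14a1* at place 92 of 15775 by p. In an exact permutation test the two-sided p was 0.1, the smallest that 3 libraries against 3 allow.

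Whether *Col14a1* was called varied with the scaling and the variance model. It was past the threshold with median-of-ratios scaling (limma, adjusted p = 0.0293), quantile normalization (0.0345), TPM rescaled without mitochondrial and 45S ribosomal RNA transcripts (0.0302), robust variance moderation (0.0426) and array weights (0.00688), and also with trends on GC content and transcript length removed (0.0195), an alternative chosen after seeing the data. Its log2 fold change was 0.76 to 0.98 with each library left out in turn, where the adjusted p ran from 0.105 to 0.290 and the gene was not called.

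*Col12a1* (ENSMUSG00000032332; chromosome 9 of GRCm38, 79598991 to 79718831, minus strand) encodes type XII collagen, the FACIT most closely related to type XIV. It was at 2.73, 3.85 and 2.03 TPM in control and 9.12, 5.39 and 2.87 TPM in Prdm16SMKO replicates 1, 2 and 3. Prdm16SMKO replicates 1 and 2 were above every control library, and replicate 3 was inside the control range. The log2 fold change was 0.81 with a standard error of 0.38 and a 95% interval of −0.051 to 1.67 (limma, adjusted p = 0.621). Without Prdm16SMKO replicate 1 it was 0.44. That replicate also had the highest summed level of skeletal muscle markers (81.1 TPM, against 2.7 to 15.5 TPM in the other 5 libraries) and of Schwann cell and neuron markers (795 TPM, against 122 to 361 TPM), and their part in the value of *Col12a1* was not tested.

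*Col16a1* (ENSMUSG00000040690; chromosome 4 of GRCm38, 130047840 to 130099283, plus strand) was at 20.4, 24.5 and 17.8 TPM in control and 28.6, 27.3 and 21.4 TPM in Prdm16SMKO replicates 1, 2 and 3. Prdm16SMKO replicates 1 and 2 were above all control libraries, and replicate 3 was inside the control range. The log2 fold change was 0.30 with a standard error of 0.18 and a 95% interval of −0.12 to 0.71 (limma, adjusted p = 0.774). *Col9a2* (ENSMUSG00000028626; chromosome 4, 121039385 to 121055322, plus strand) was below the expression minimum, with 0.03, 0.08 and 0 TPM in control and 0.95, 0.20 and 0 TPM in Prdm16SMKO replicates, so its higher group mean came mainly from Prdm16SMKO replicate 1. It was listed at 0 in control replicate 3 and Prdm16SMKO replicate 3, and no difference was fitted for it. Both genes lie on the chromosome of *Prdm16*, at distances of 24.2 and 33.3 Mb. The partner chains of *Col9a2* were low as well, with *Col9a1* at no more than 0.26 TPM. *Col9a3* was at 0.54 to 0.93 TPM in control and 1.03 to 1.95 TPM in Prdm16SMKO libraries, without overlap (limma, adjusted p = 0.722).

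Since a ratio of 2 genes within a library does not depend on how the library was scaled, the balance of the chains was compared next. *Col6a3* was at 0.508, 0.583 and 0.568 of the level of *Col6a1* in control replicates 1, 2 and 3 and at 0.730, 0.787 and 0.777 in Prdm16SMKO replicates. The 2 groups were far apart relative to their spread, with means of 0.553 ± 0.0398 and 0.765 ± 0.0306 (SD, n = 3 each). The mean log2 ratio was higher by 0.47 in Prdm16SMKO libraries, or 1.38-fold, with an exact two-sided permutation p of 0.1, the smallest possible, and 0.25 when adjusted over the 5 ratios tested. This difference stayed between 0.41 and 0.51 with each library left out in turn, and it was 0.49 with GC content and transcript length trends removed. *Col6a3* has a longest annotated transcript of 10106 bases, against 4100 for *Col6a1* and 4912 for *Col6a2*.

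*Col6a2* and *Col6a1* were close to each other in every library. Their ratio was 1.08, 1.14 and 1.13 in control and 1.02, 1.02 and 1.04 in Prdm16SMKO replicates 1, 2 and 3. The ranges did not overlap, and the mean log2 ratio was lower by 0.12 in Prdm16SMKO libraries, 0.919-fold (exact permutation test, two-sided p = 0.1, adjusted p = 0.25). The ratio of *Col14a1* to *Col12a1* overlapped widely, from 12.8 to 21.97 in control and from 9.11 to 26.2 in Prdm16SMKO libraries, with a difference in mean log2 ratio of −0.015 (exact permutation test, two-sided p = 1, adjusted p = 1). In this bulk tissue, fewer cells of a type and less RNA per cell cannot be told apart.

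The remaining planned ratios set the summed trio *Col6a1*, *Col6a2* and *Col6a3* against other collagen and cell type levels. Against the summed level of the fibrillar genes *Col1a1*, *Col1a2* and *Col3a1* the ratio was 0.246, 0.3005 and 0.241 in control and 0.359, 0.284 and 0.313 in Prdm16SMKO replicates 1, 2 and 3. The groups overlapped, and the mean log2 ratio was higher by 0.28 in Prdm16SMKO libraries (exact permutation test, two-sided p = 0.2, adjusted p = 0.25). Against the summed level of 12 adventitial fibroblast markers the ratio was 0.332, 0.438 and 0.264 in control and 0.331, 0.214 and 0.210 in Prdm16SMKO replicates, a difference of −0.46 on the log2 scale with overlapping groups (exact permutation test, two-sided p = 0.2, adjusted p = 0.25).

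Ratios of *Col14a1* were added after its values were seen and are given as a description only. *Col14a1* was at 0.237, 0.218 and 0.279 of the level of *Col6a1* in control and at 0.556, 0.590 and 0.594 in Prdm16SMKO replicates 1, 2 and 3, a 2.39-fold higher mean ratio on the log scale. Relative to the 3 fibrillar genes it was at 0.0238 ± 0.00127 in control and 0.0661 ± 0.00646 in Prdm16SMKO libraries (SD, n = 3 each), 2.77-fold higher. Relative to the adventitial fibroblast markers it was at 0.0303, 0.0350 and 0.0273 in control and 0.0670, 0.0450 and 0.0442 in Prdm16SMKO replicates, and the groups did not overlap. The part of fibroblasts in the level of *Col14a1* was not tested. As a share of the summed TPM of the 8 genes, *Col14a1* took 7.99% ± 0.940 in control and 16.1% ± 0.467 in Prdm16SMKO libraries, and *Col6a2* took 36.5% ± 0.426 and 28.4% ± 0.245 (SD, n = 3 each).

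**Figure D3:**
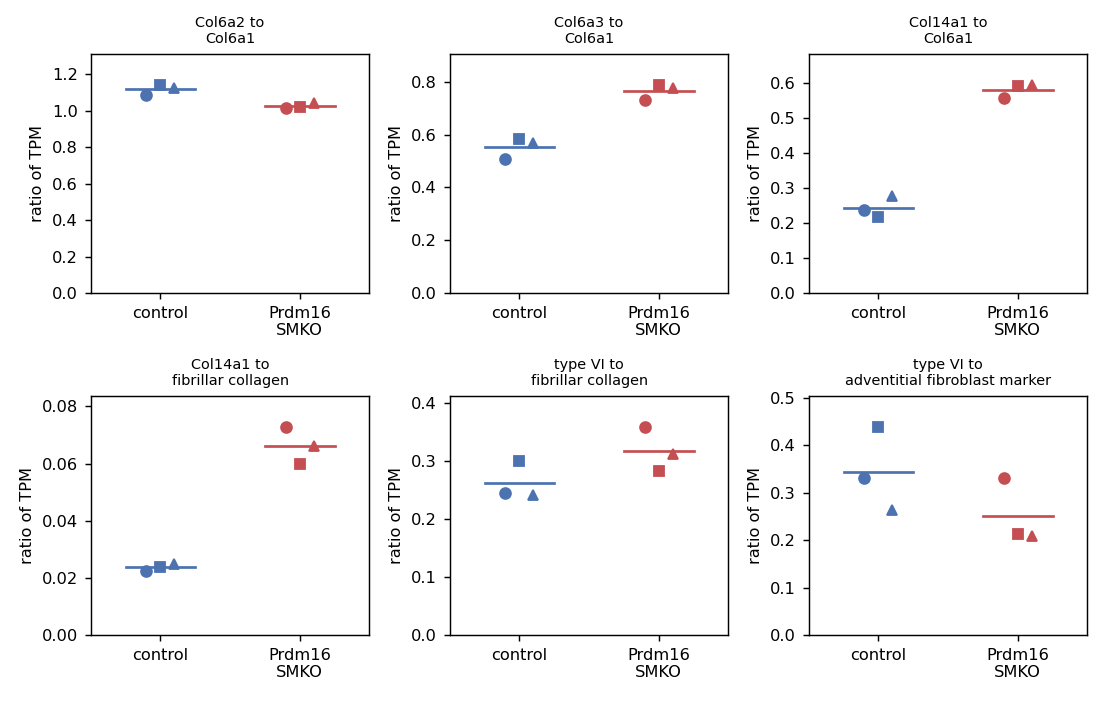
Ratios of TPM within each of the 3 control and 3 Prdm16SMKO libraries, on axes that start at 0. Points are libraries (circle, square and triangle for replicates 1, 2 and 3) and bars are group means. The groups do not overlap for *Col6a2* to *Col6a1*, *Col6a3* to *Col6a1*, *Col14a1* to *Col6a1* and *Col14a1* to the fibrillar genes, and they overlap for both ratios of the summed type VI trio.

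Genes that make, modify and bind these collagens were followed through lists written from general knowledge, but with earlier results of these data known. Counts over these lists are therefore a description only. Of the fibrillar collagens, on which FACITs sit, 8 of 11 were tested, and 6 were lower and 2 higher in Prdm16SMKO libraries. Their median difference was −0.46 on the log2 scale. By limma 0 were called, against 0.355% of all tested genes, and 5 had an unadjusted p under 0.05, against 8.74%. *Col3a1* was at 860 ± 61.5 TPM in control and 521 ± 127 TPM in Prdm16SMKO libraries, *Col1a1* at 476 ± 26.8 and 334 ± 84.8 TPM and *Col5a2* at 83.5 ± 15.2 and 57.2 ± 10.3 TPM (SD, n = 3 each), with log2 fold changes of −0.74, −0.54 and −0.54 (limma, adjusted p = 0.234, 0.447 and 0.447). *Col5a3* was higher in Prdm16SMKO libraries, at 6.62 ± 2.12 TPM against 4.10 ± 0.150 TPM in control (SD, n = 3 each), with a log2 fold change of 0.59 (limma, adjusted p = 0.496). In each of these 4 genes, named for their large differences, the groups did not overlap. Over the whole list, 4 genes were lower and 1 higher without overlap, against 5.76% and 7.02% of all tested genes. Of the other type VI and FACIT genes, 7 of 8 were in the table and 4 were tested, 2 higher and 2 lower, with a median of 0.13, and 0 were called by limma or had an unadjusted p under 0.05. The most abundant of these genes was *Col19a1*, another FACIT, at 8.69 ± 1.61 TPM in control and 7.62 ± 1.49 TPM in Prdm16SMKO libraries (SD, n = 3 each). Its difference was −0.18 on the log2 scale (limma, adjusted p = 0.922).

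The enzymes and chaperones that hydroxylate, glycosylate, fold and export collagen chains were lower in 18 of 20 tested genes, of 21 listed, with a median log2 fold change of −0.21, beside 7223 lower of 15775 tested genes in all. None was called by limma, and 2 had an unadjusted p under 0.05, a share near the 8.74% of all tested genes. *Serpinh1*, the collagen chaperone HSP47, was at 442, 541 and 461 TPM in control and 361, 375 and 296 TPM in Prdm16SMKO replicates 1, 2 and 3. The groups did not overlap (log2 fold change −0.49, standard error 0.16, limma, adjusted p = 0.410). The prolyl isomerase gene *Fkbp10* and the lysyl hydroxylase gene *Plod1* had log2 fold changes of −0.36 and −0.35 without overlap of the groups, and *P3h3*, a prolyl 3-hydroxylase family gene, had −0.28 with overlap (limma, adjusted p = 0.666, 0.566 and 0.749). Of 8 genes for collagen propeptide processing 6 were tested, 4 lower and 2 higher, with a median of −0.064. By limma 0 were called, and 1 had an unadjusted p under 0.05, against 8.74% of all tested genes. This was the procollagen N-proteinase gene *Adamts2* (log2 fold change −0.44, limma, adjusted p = 0.570). *Adamts14*, *Bmp1* and the enhancer gene *Pcolce* had log2 fold changes of 0.29, −0.10 and 0.037 with overlapping groups.

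Of 16 matrix partners of type VI collagen and FACITs, 14 were tested, 8 lower and 6 higher, and the median difference was −0.039 on the log2 scale. Of the 14, 3 had an unadjusted p under 0.05, against 8.74% of all tested genes. *Comp*, cartilage oligomeric matrix protein, which binds fibrillar and fibril-associated collagens, was the 1 gene called by limma, against 0.355% of all tested genes. It fell from 18.8, 23.0 and 19.2 TPM to 7.37, 8.97 and 8.92 TPM (log2 fold change −1.22, standard error 0.17, limma, adjusted p = 0.0265). *Bgn*, which encodes biglycan, a proteoglycan that binds type VI collagen, was at 2124 ± 465 TPM in control and 1298 ± 199 TPM in Prdm16SMKO libraries, and *Fn1*, fibronectin, at 1381 ± 272 and 836 ± 217 TPM (SD, n = 3 each). Neither overlapped between the groups, with log2 fold changes of −0.70 and −0.74 (limma, adjusted p = 0.332 and 0.367). *Dpt*, dermatopontin, had 0.51 with overlapping groups (limma, adjusted p = 0.627). Of 13 collagen receptor genes 12 were tested, 7 lower and 5 higher, with a median of −0.038. By limma 0 were called, and 2 had an unadjusted p under 0.05, against 8.74% of all tested genes. *Antxr1*, a receptor that binds type VI collagen, was at 45.7 ± 6.71 TPM in control and 31.3 ± 5.14 TPM in Prdm16SMKO libraries (SD, n = 3 each) without overlap (log2 fold change −0.54, limma, adjusted p = 0.399). *Cspg4*, the NG2 proteoglycan and also a type VI collagen receptor, *Ddr1* and the integrin gene *Itga1* had log2 fold changes of −0.42, −0.31 and 0.30 with overlapping groups.

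**Figure D4:**
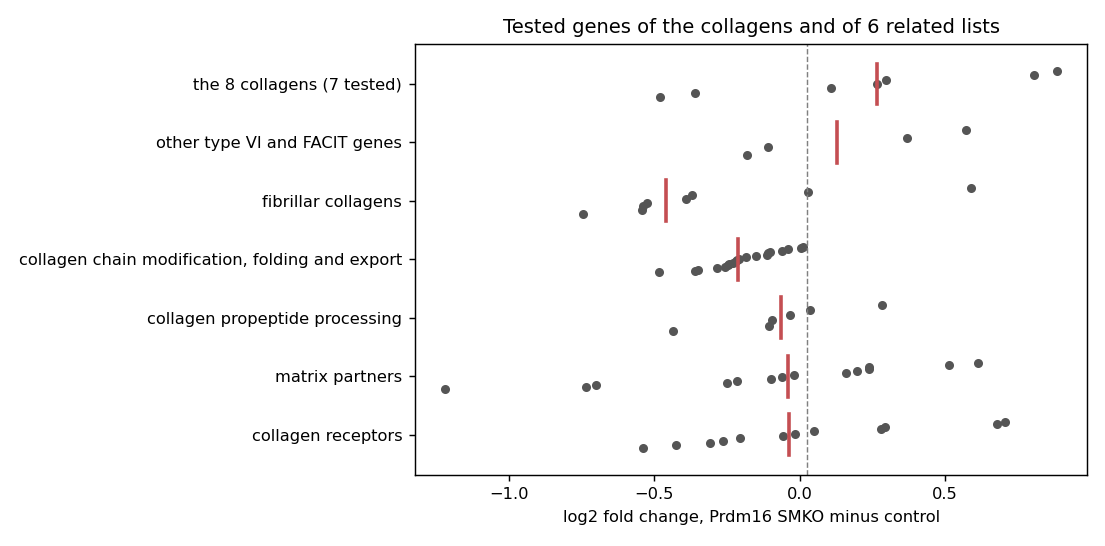
Log2 fold change, Prdm16SMKO minus control, of the tested genes among the 8 collagens and in 6 related lists. Points are genes, red bars are the median of each list and the dashed line is the median of all tested genes (0.025). The fibrillar collagens (−0.46) and the chain modification genes (−0.21) have the lowest medians. Propeptide processing (−0.064), matrix partners (−0.039) and collagen receptors (−0.038) have medians just below 0. The other type VI and FACIT genes (0.13) and the 7 tested collagens (0.27) have medians above 0.

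Cell type markers were measured beside these genes. The 12 VSMC markers summed to 16057 to 27039 TPM in control and 12532 to 19100 TPM in Prdm16SMKO libraries, led by *Acta2*, with 8 lower and 4 higher (median log2 fold change −0.27). The 12 adventitial fibroblast markers, led by *Gsn*, summed to 1408 to 1632 and 1241 to 2267 TPM, with 10 higher and 2 lower (median 0.084). Fibroblasts are a main source of type VI and type XIV collagen. Macrophage markers, led by *Lyz2*, summed to 85.0 to 134 and 134 to 248 TPM (11 of 12 higher, median 0.73), endothelial markers, led by *Pecam1*, to 346 to 419 and 366 to 589 TPM (8 of 12 higher, median 0.27), adipocyte markers, led by *Fabp4*, to 927 to 2055 and 1307 to 5116 TPM (10 of 10 higher, median 0.96), and Schwann cell and neuron markers, led by *Uchl1*, to 122 to 361 and 162 to 795 TPM (10 of 10 higher, median 0.92). The adipocyte sum was 5116 TPM in Prdm16SMKO replicate 3, while Prdm16SMKO replicates 1 and 2, at 1322 and 1307 TPM, were inside the control range. Skeletal muscle markers, led by *Tnnt3*, had 5 of 7 tested genes higher (median 0.49), with *Myog* at 0. Their sum was 6.14 to 15.5 TPM in control libraries and 81.1 TPM in Prdm16SMKO replicate 1. Prdm16SMKO replicates 2 and 3, at 5.23 and 2.7 TPM, were below every control library. Chondrocyte markers, led by *Hapln1*, summed to 7.63 to 13.6 TPM in control and 3.90 to 5.33 TPM in Prdm16SMKO libraries, with 3 of 3 tested genes lower (median −1.14) and *Matn1* at 0. Mesothelial markers, led by *Gpm6a*, summed to 0.90 to 2.44 and 2.35 to 3.39 TPM, with 1 gene tested, which was higher (0.71). By limma 0 genes of the 9 marker lists were called. Of the 12 macrophage markers, 5 were higher without overlap of the groups, against 7.02% of all tested genes. These 5 were among 7 macrophage markers, all higher, with an unadjusted p under 0.05, against 8.74% of all tested genes. That p was also reached by 5 of 12 VSMC markers (2 higher, 3 lower), 3 of 12 endothelial (1 higher, 2 lower), 2 of 10 adipocyte (higher), 2 of 3 chondrocyte (lower), 1 of 12 fibroblast, 1 of 10 Schwann cell and neuron and 1 of 1 mesothelial markers (each higher), and 0 of 7 skeletal muscle markers. The part of these cell types in the values of the collagens was not tested.

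The genes with levels most like the type VI trio were sought among the 9664 other genes that averaged 5 TPM or more, by Pearson's r over the 6 libraries with the mean of the standardised log2 levels of *Col6a1*, *Col6a2* and *Col6a3*. Among the 5 highest values were those of *P3h1*, a collagen prolyl 3-hydroxylase (r = 0.999), *Scaf8* (0.998), *Impad1* (0.995) and *Slc12a4* (0.995). *P3h1* was at 19.0, 24.2 and 16.5 TPM in control and 16.6, 19.5 and 14.4 TPM in Prdm16SMKO replicates 1, 2 and 3. As in the summed level of the trio, control replicate 2 was the highest library and Prdm16SMKO replicate 3 the lowest. *Col6a3* by itself was highest in Prdm16SMKO replicate 2 (136 TPM) and lowest in control replicate 3 (90.9 TPM). All genes share the scaling of their library, and r over 6 libraries is a description of these libraries only. With the same profile r was 0.96 for *Col6a1*, 0.92 for *Col6a2* and 0.73 for *Col6a3*, each of which is part of it. For the other tested members r was 0.15 for *Col6a6*, 0.13 for *Col12a1*, 0.31 for *Col16a1* and −0.22 for *Col14a1*.

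**Figure D5:**
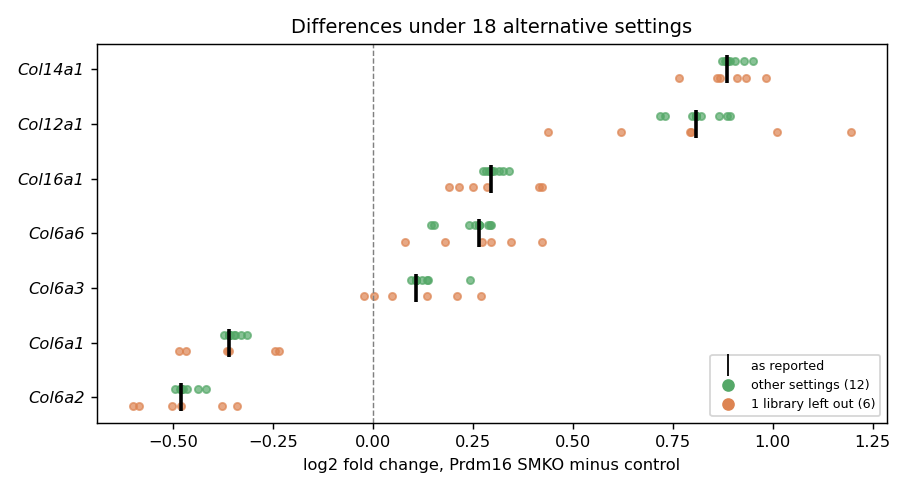
Log2 fold change of the 7 tested genes, Prdm16SMKO minus control, as reported (black bars), under 12 other settings (green) and with each of the 6 libraries left out (orange). *Col6a3* lies from −0.023 to 0.27 and the other 6 genes keep their sign throughout.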

How the data were processed

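RNA of the abdominal aorta was sequenced by the authors after poly A selection, as read pairs of 151 bp, with a stated average of 40 M read pairs per library. The authors deposited TPM values rounded to 2 decimals for 55426 genes. The submitters' processing notes name GRCm38, bcl2fastq, cutadapt 2.3, FastQC 0.11.8, STAR 2.7.8a, RSEM 1.3.3 and MultiQC 1.7, without roles or settings, and the annotation and strand setting are not given in the sources used here. The depth of single libraries is unknown. No 2 libraries held identical values (0 identical pairs).

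Groups were taken from the sample titles. The members and the lists were chosen with earlier results of these data known. Log2(TPM + 0.5) of genes that averaged 0.5 TPM or more was fitted with limma 3.58.1 in R 4.3.3, with a variance trend, two-sided, and checked on simulated data. The 5 ratios were compared by exact two-sided permutation of the 6 libraries. Positions were read from GENCODE M21 (GRCm38) for the 55240 identifiers found there. For transcript lengths the longest transcript of a gene was used. Besides the 8 genes and *Prdm16*, the text names the called genes of 6 lists and up to 4 genes per list with the largest differences among those averaging 5 TPM or more, the most abundant gene of 9 marker lists, the 5 genes most like the type VI trio (1 of which is not reported here), and overlapping or neighbouring genes. *Col6a4*, *Col6a5*, *Col9a1* and *Col9a3* were named as further chains of the same families after their values were seen. There were 18 alternatives, 1 of them (trends on GC content and transcript length removed) chosen after the values were seen. Python 3.11.15, pandas 2.3.3 and matplotlib 3.10.9 made the tables and figures.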

Additional observations from a re-analysis of the deposited data

How the results depend on the processing

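*Col6a1*, *Col6a2*, *Col6a6*, *Col12a1*, *Col14a1* and *Col16a1* kept their direction under all 18 alternatives, and *Col6a3* under 17, ranging from −0.023 to 0.27 with 1 library left out. Median-of-ratios scaling, quantile normalization, rescaling without mitochondrial and 45S ribosomal RNA transcripts, robust variance moderation, array weights and removal of GC content and transcript length trends, the last chosen after seeing the data, each called 1 member, *Col14a1*, in place of 0. The other alternatives called 0 members, among them every fit that left out 1 library (0 to 0). Over all genes the calls were 56 (29 higher, 27 lower), against 10 with no expression minimum, 33 without a variance trend, 112 with robust moderation, 494 with array weights, 153 (60 higher, 93 lower) with median-of-ratios scaling, 129 (46 higher, 83 lower) with quantile normalization, 144 (65 higher, 79 lower) without mitochondrial and ribosomal transcripts, 152 (62 higher, 90 lower) with GC content and length trends removed, and 5 to 61 with 1 library left out. The cause was not tested. The difference in the *Col14a1* to *Col12a1* ratio was 0.078 with 0.5 TPM added to both and −0.35 to 0.41 with 1 library left out. The other 4 ratios kept their direction, with ranges on leaving out 1 library of −0.14 to −0.11 (*Col6a2* to *Col6a1*), 0.41 to 0.51 (*Col6a3* to *Col6a1*), 0.19 to 0.38 (type VI to fibrillar) and −0.67 to −0.27 (type VI to fibroblast markers). With the replicate number as a block, 4 genes and 0 members were called, and the *Col6a3* to *Col6a1* ratio had an exact sign-flip p of 0.25, the smallest that 3 pairs allow. Deviations of libraries with the same number correlated by −0.13, −0.11 and 0.02, and those of libraries with unlike numbers by −0.17 to 0.24. With 3 libraries in each group, these values cannot decide whether the numbers pair the libraries.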

Other observations

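The nearest tested protein-coding neighbours of the 8 genes, 14 genes outside the members, were looked up. By limma 0 of them were called, 1, *Deptor*, had an unadjusted p under 0.05, against 8.74% of all tested genes, and 2 had groups that did not overlap, against 12.8%. Both shares are near those of all genes. *Deptor*, which encodes an inhibitor of mTOR and lies 48.5 kb from *Col14a1*, was at 6.97, 7.65 and 6.36 TPM in control and 8.73, 8.47 and 12.8 TPM in Prdm16SMKO replicates 1, 2 and 3, without overlap (log2 fold change 0.47, standard error 0.20, limma, adjusted p = 0.560). On the other side of *Col14a1*, *Mrpl13*, a mitochondrial ribosomal protein gene 13.3 kb away, had a log2 fold change of 0.17 with overlapping groups (limma, adjusted p = 0.883). *Mlph*, next to *Col6a3*, was the other neighbour without overlap, at 1.40, 1.64 and 1.21 TPM in control and 0.96, 1.05 and 0.70 TPM in Prdm16SMKO replicates (log2 fold change −0.45, limma, adjusted p = 0.764). *Pcbp3*, an RNA-binding protein gene 35.7 kb from *Col6a1*, was highest in Prdm16SMKO replicate 1, at 21.2 TPM against 4.50 to 10.04 TPM in the other 5 libraries.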
